A study of Mus musculus with 272 samples.

Results

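The 8 genes described here encode the proteins with which the mouse egg meets the sperm. They were taken by symbol from the deposited table, and all 8 were among the 15771 gene symbols kept: Zp1, Zp2 and Zp3 for the proteins of the zona pellucida, Astl for the protease that cleaves ZP2, Cd9, Cd81 and Izumo1r for egg surface proteins, and Itpr1 for a calcium channel. RNA was measured in mouse germinal vesicle (GV) oocytes, metaphase II (MII) oocytes, zygotes, 2-cell, 4-cell and 8-cell embryos, morulae and blastocysts. Each stage had 4 transcriptome libraries, each from a pool of 20 oocytes or embryos, and 3 sucrose gradients of about 100 oocytes or embryos, each divided into 10 fractions, which gave 32 transcriptome and 240 fraction libraries. The labels set the groups apart by stage, kind of library and fraction. They give no genotype, and the gradient lysates of every stage were made with cycloheximide, which holds ribosomes on their transcripts. The sources used here do not say that the pools or gradients of a stage came from separate animals, so p-values measure only the spread between these samples, which may be technical.

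The zona pellucida is the extracellular coat of the egg. ZP2 is the protein to which sperm bind, and after fertilization ovastacin, the product of Astl, is released from cortical granules and cleaves ZP2, which blocks further sperm. Juno, the product of Izumo1r, is the egg receptor for sperm IZUMO1 and is shed from the egg surface after fusion, while CD9 is a tetraspanin that the egg needs for fusion and CD81 is a related tetraspanin. The type 1 inositol trisphosphate receptor, encoded by Itpr1, releases the calcium of egg activation. In oocytes many transcripts are stored with short poly(A) tails, and most maternal transcripts are cleared before or during the start of embryonic transcription. In a sucrose gradient, a transcript carrying more ribosomes sediments further.

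The ends of the 8 transcripts are shown because the 3 zona genes stand out among all genes for how little sequence follows their stop codon. Each line gives 30 bases near the end of the GENCODE M21 transcript, 5′ to 3′, in GRCm38 coordinates, with the polyadenylation signal AATAAA in capitals. These are the last 30 bases except in Zp2 and Cd81. There AATAAA begins 38 and 35 bases before the transcript end, and the stretch shown stops short of that end. The deposited values were made on GRCm39 per the submitters' processing notes.
Zp1 (chr19:10914289-10920632, minus strand): actcAATAAAccattgtttgaaaactcctg
Zp2 (chr7:120132340-120145290, minus strand): tgcaAATAAAgagactgcagttaaactctt
Zp3 (chr5:135980099-135988624, plus strand): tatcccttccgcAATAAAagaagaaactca
Astl (chr2:127341630-127357650, plus strand): aggtagaAATAAAgttgggtgtttgcttca
Cd9 (chr6:125460266-125494791, minus strand): tttgatacatAATAAAagattataacagtg
Cd81 (chr7:143052739-143067934, plus strand): atttAATAAAggaggaaaaaaatcaggcat
Izumo1r (chr9:14900023-14903932, minus strand): gtaccttcAATAAAaggctaggaaactcta
Itpr1 (chr6:108213096-108551109, plus strand): aaaaatatttAATAAAcgatgcagaatcct

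The annotated 3′ untranslated regions were 13 bases in Zp3, 34 in Zp1 and 49 in Zp2, against a median of 1049 over 13426 genes of the table. Of those genes 0.79% had one as short as that of Zp3, 1.38% as short as that of Zp1 and 1.94% as short as that of Zp2. In Zp3 the AATAAA overlaps the stop codon itself. The others had 333 bases in Izumo1r, 395 in Cd9, 560 in Cd81, 876 in Astl and 1270 in Itpr1. AATAAA lay in the last 100 bases of 8 of 8 transcripts and of 65.9% of all genes. The sequences TTTTAT and TTTTAAT, forms of the cytoplasmic polyadenylation element, were searched on the transcript strand of the same 100 bases. No match was found there in the 8, and 18.5% of all genes had one. In the zona genes, with 3′ untranslated regions of 13 to 49 bases, most of these 100 bases lie before that region. Over the whole 3′ untranslated region Cd9 and Cd81 held 1 each and Itpr1 held 2.

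RefSeq's promoter table (GRCm38.p6) held entries for 5 of the 8, namely Zp3, Astl, Cd9, Cd81 and Izumo1r, and not for Zp1, Zp2 and Itpr1. The windows of Zp3 and Cd9 are shown because Zp3 was highest in the oocyte while Cd9 returned in the embryo. Each runs from 250 to 41 bases before the start of the gene, 210 bases on the gene's strand, with the E-box CANNTG in capitals. FIGLA, an oocyte transcription factor known to activate the zona genes, binds E-boxes; a match is a description and not a site.
Zp3 (chr5:135979855-135980064, plus strand): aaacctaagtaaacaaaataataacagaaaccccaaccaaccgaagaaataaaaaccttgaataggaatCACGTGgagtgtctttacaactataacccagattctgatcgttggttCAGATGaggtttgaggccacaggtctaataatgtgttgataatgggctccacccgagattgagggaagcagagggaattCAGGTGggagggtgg
Cd9 (chr6:125494801-125495010, minus strand): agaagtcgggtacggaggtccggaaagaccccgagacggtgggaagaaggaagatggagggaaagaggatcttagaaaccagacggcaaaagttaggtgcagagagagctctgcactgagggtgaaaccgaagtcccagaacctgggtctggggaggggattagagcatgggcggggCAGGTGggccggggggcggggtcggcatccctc

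CANNTG reads the same on both strands. Zp3 held 3, at -181, -134 and -55 from the start of the gene, and 8.52% of the 32851 windows of this length held at least as many. The first of them, CACGTG, occurred in 4.65% of windows. Cd9 held 1, at -73, and 60.7% of windows held at least 1. The windows of Cd81 and Izumo1r held 1 each, and the 2 entries of Astl held 0 and 3.

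Depth was the library size implied by the deposited value of 1 read. It was 11.8 to 25.2 M for transcriptomes and 1.15 to 44.0 M for fractions 2 to 10. Libraries of fraction 1 went down to 0.0105 M. The median over all fraction libraries of a stage ran from 9.05 M in 4-cell embryos to 35.2 M in blastocysts. Oocyte markers fixed for this work (Gdf9, Bmp15, Zar1, Nlrp5 and Padi6) summed to 11806 to 13526 CPM (reads of a gene per 1 M reads of the library) in GV transcriptomes. At the 4-cell stage they summed to 57.3 to 89.8 CPM in the transcriptomes and to a median of 671 CPM in the fraction libraries, with a highest value of 4743. Of 14 cumulus and granulosa cell markers 6 were in the table, and they summed to 41.7 to 46.4 CPM in GV transcriptomes, nearly all from Cyp19a1, with Amhr2 at 0 in every GV library. At the 4-cell stage their sum was 17.1 to 32.7 CPM in transcriptomes and had a median of 303 in fractions, and at the 8-cell stage 15.5 to 25.6 and 211. The part of these cells in the values below was not tested.

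The zona transcripts were high in the GV oocyte and were at most 30.9 CPM in 4-cell embryos. Zp2 measured 4123, 4699, 4643 and 4833 CPM in the 4 GV pools, Zp3 measured 3659, 4362, 3919 and 4197 CPM, and Zp1 measured 1029, 1316, 1086 and 1340 CPM. In MII oocytes, where 25.3% of all genes tested were called lower than in GV oocytes, the 3 had fallen already, before fertilization. The 4 GV and the 4 MII transcriptomes did not overlap for any of the 3, which was not counted over all genes. The gradient libraries of the same stages did not show this fall: the mean over the 10 fractions went from 2214 to 2559 CPM for Zp1, from 575 to 855 for Zp2 and from 6649 to 5667 for Zp3 (n = 3 gradients), and for each of the 3 the ranges of both stages overlapped. In transcriptomes the largest log2 change of Zp1 and Zp2 came later, between the 2-cell and the 4-cell embryo.

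Zp2 fell to 1051, 1572, 327 and 638 CPM in MII oocytes, a log2 change of -2.57 (SE 0.332, limma adjusted p = 2.82e-08). Its MII libraries differed among themselves more than those of any other stage where it was abundant, with libraries C and D below A and B. The same held in MII oocytes for Zp1, Zp3, Izumo1r and Cd9, but not for Astl. MII libraries C and D had 9853 and 10077 genes of at least 1 CPM, against 10449 in A and 10317 in B. The part of this in the falls at maturation was not tested. In zygotes Zp2 fell again, to 139, 129, 140 and 139 CPM (log2 change -2.48, limma adjusted p = 3.56e-07). It then paused: 2-cell embryos held 125, 167, 136 and 120 CPM and overlapped with zygotes. At the 4-cell stage Zp2 fell by 4.15 on the log2 scale, to between 5.07 and 10.3 CPM, and in blastocysts it was between 0.305 and 2.13 CPM.

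Zp3 forms, with ZP2, the repeating filament of the coat. It fell to 713, 658, 402 and 399 CPM in MII oocytes (log2 change -2.94, SE 0.216, limma adjusted p = 3.07e-14), to 209, 265, 201 and 211 CPM in zygotes and to 57.8, 47.1, 34.8 and 44.9 CPM in 2-cell embryos (log2 change -2.25). At later stages it went down in smaller steps. It was between 18.4 and 30.9 CPM at the 4-cell stage, where its change of -0.89 had an adjusted p of 0.00036 but missed the limit of 1 on the log2 scale (it was -1.04 with edgeR and -1.01 without 2-cell library G), and between 20.9 and 24.5 CPM at the 8-cell stage. It fell in morulae, to between 8.1 and 14.8 CPM, and in blastocysts, to between 2.24 and 5.87 CPM (log2 changes -1.003 and -1.29). The morula step fell short of the limit without 8-cell library B or D or morula library A or D.

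Zp1 cross-links the filaments. It had the smallest change of the 3 at maturation, to 697, 568, 270 and 408 CPM in MII oocytes (log2 change -1.37, SE 0.276, limma adjusted p = 5.78e-05). In zygotes it fell by 2.68 to 61.7, 92.5, 63.9 and 67.3 CPM. In 2-cell embryos it was at 35.3, 26.4, 32.8 and 33.7 CPM, a fall of 1.12 that dropped to -0.99, under the limit, without zygote library B. At the 4-cell stage it fell by 3.09 to between 2.26 and 3.7 CPM. A further fall in blastocysts, of 1.03 to between 0.5 and 1.1 CPM, missed the limit without morula library A or D or blastocyst library A or C.

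Astl, the gene of the protease that modifies the zona, was the one member that rose at maturation. It measured 172, 231, 203 and 234 CPM in GV oocytes and 642, 479, 533 and 420 CPM in MII oocytes, a log2 change of 1.29 (SE 0.301, limma adjusted p = 0.000368), with every MII library above every GV library. In zygotes it fell by 3.30 to 45.1, 72.7, 39 and 54 CPM, the largest fall of the 8 genes at this step in transcriptomes. Its gradient means, 1780 to 3979 CPM in MII oocytes and 1966 to 2172 in zygotes, overlapped. It fell again in 2-cell embryos, to between 8.12 and 13.9 CPM (log2 change -2.19), and in 4-cell embryos, to between 0.206 and 3.2 CPM (log2 change -2.36). Blastocysts held at most 0.224 CPM.

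The transcriptome level of Izumo1r went down, up and down again. The 4 GV pools measured 810, 866, 735 and 795 CPM and the MII pools 79.6, 77.9, 40.6 and 51.6 CPM, a log2 change of -3.71 (SE 0.222, limma adjusted p = 1e-16). Zygotes were higher, with 141, 155, 180 and 125 CPM and no overlap with MII oocytes. The rise was 1.30 on the log2 scale (limma adjusted p = 2.35e-05), and the adjusted p ran from 3.25e-06 to 0.0975 over 6 alternative settings, with the call lost at a pseudocount of 0.1. 2-cell embryos still held 121, 140, 96.9 and 106 CPM. At the 4-cell stage Izumo1r fell in transcriptomes to between 0.137 and 0.857 CPM. The log2 change of -6.359 was the largest of any member at any transcriptome step. Later transcriptomes stayed at or under 0.906 CPM, with some libraries at 0 reads. The gradient means of Izumo1r fell less at maturation, from 1479 to 2076 CPM in GV oocytes to 828 to 1300 in MII oocytes. They were 2623 to 3584 CPM in zygotes and 1311 to 1482 in 2-cell embryos. At the 4-cell and 8-cell stages they were still 52.5 to 171 and 11.2 to 32.5 CPM.

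In transcriptomes Cd9 was alone among the 8 in having a second period of high levels. It fell from 257, 276, 302 and 239 CPM in GV oocytes to 27.7, 28.5, 15.5 and 13.5 CPM in MII oocytes (log2 change -3.66, SE 0.247, limma adjusted p = 2.91e-15). Zygotes, at 25.6, 25, 37.4 and 22.9 CPM, overlapped with MII oocytes. The gradient means took another course, with 29.6 to 40 CPM in MII oocytes, 127 to 184 in zygotes and 45.7 to 89.3 in 2-cell embryos. In transcriptomes Cd9 rose in 2-cell embryos to 80.4, 84.1, 98.9 and 81.4 CPM (log2 change 1.62). It rose again in 4-cell embryos, to 246, 199, 255 and 285 CPM (log2 change 1.496). From then on it stayed between 122 and 384 CPM, with 143 to 233 CPM in 8-cell embryos, 122, 323, 384 and 273 CPM in morulae and 156 to 274 CPM in blastocysts, with overlap between these stages.

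Cd81, the related tetraspanin, was low in the transcriptomes. No transcriptome library before the blastocyst passed 3.07 CPM, and in morulae it was between 0 and 0.753 CPM. It rose in blastocysts to 7.88, 8.68, 4.46 and 4.64 CPM (log2 change 2.62, limma adjusted p = 6.41e-10). The blastocyst transcriptomes did not overlap with those of any earlier stage. The gradient means showed no such rise: they were 4.82 to 6.38 CPM in blastocysts, 2.45 to 7.45 in morulae, 2.73 to 8.49 in zygotes and 5.27 to 13.6 in GV oocytes. They were 1.1 to 5.29 CPM in MII oocytes, 0 to 7.81 in 2-cell, 7.48 to 20 in 4-cell and 0 to 8.2 in 8-cell embryos. At the 4-cell stage 23 of 30 fraction libraries had 0 reads of Cd81. A single fraction held 99.4, 100 and 78.5% of its summed CPM in gradients A, B and C.

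Itpr1 held its transcript level through maturation and fertilization. It was between 25.8 and 31.8 CPM in GV oocytes, 22.8 and 41 in MII oocytes, 21.6 and 37.3 in zygotes and 31.1 and 52.2 in 2-cell embryos, and none of these 3 steps passed the test. At the 4-cell stage it fell by 3.25 on the log2 scale to between 1.3 and 5.88 CPM (limma adjusted p = 9.43e-13). Later stages lay between 0.299 and 3.76 CPM.

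**Figure D1:**
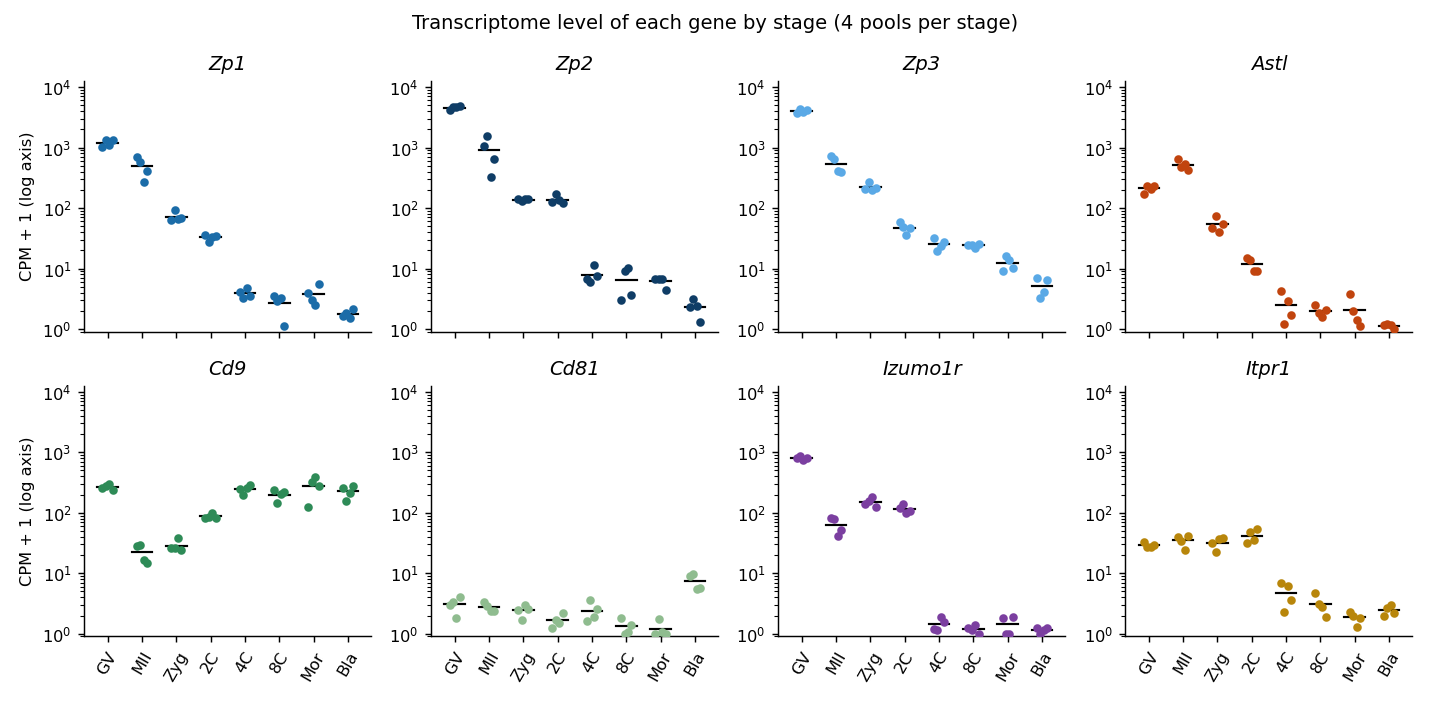
Level of each of the 8 genes in the 32 transcriptome libraries by stage, as CPM plus 1 on a log axis, with 1 point per library (n = 4 per stage) and the mean as a bar. The zona genes and Izumo1r descend from the GV oocyte, Astl peaks in the MII oocyte, Cd9 dips in MII oocytes and zygotes, and Itpr1 falls only at the 4-cell stage.

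Read by step against all 14642 genes tested, the 8 were called as follows. From GV to MII oocytes 5 were lower (Zp1, Zp2, Zp3, Cd9 and Izumo1r), where 25.3% of all genes were lower, and 1 was higher (Astl), where 9.11% were higher. From MII oocytes to zygotes 4 were lower (the zona genes and Astl), beside 4.48% of all genes, and 1 was higher (Izumo1r), beside 5.79%. From zygotes to 2-cell embryos 3 were lower (Zp1, Zp3 and Astl), beside 8.71%, and 1 was higher (Cd9), beside 25.2%. From 2-cell to 4-cell embryos 5 were lower (Zp1, Zp2, Astl, Izumo1r and Itpr1), beside 32.9%, and 1 was higher (Cd9), beside 31.8%. No member was called from the 4-cell to the 8-cell stage with limma or with edgeR, where 2.6% of all genes were called and 2 of the 8 had an unadjusted p under 0.05. In morulae 1 was lower (Zp3), beside 3.7%. In blastocysts 3 were lower (the zona genes), beside 7.97%, and 1 was higher (Cd81), beside 18.8%. CPM gives a share of each library, so in these bulk samples fewer cells of a type and less RNA per cell cannot be told apart.

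Levels of different genes were compared per transcript length. Per kilobase, Zp3 stood first in GV oocytes with 3049 ± 234 CPM (SD, n = 4), before Zp2 with 2059 ± 140. Izumo1r with 620 ± 41.5 and Zp1 with 608 ± 80.5 differed by less than their spread. Cd9 followed with 219 ± 22, then Astl with 93.3 ± 12.8 CPM per kilobase. By the 2-cell stage Izumo1r led with 89.9 CPM per kilobase, and Cd9 was next with 70.2. By the 4-cell stage Cd9 led with 200 and Zp3 followed with 18.6 CPM per kilobase.

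The genes whose level most resembled that of a member were taken as the 2 with the highest Pearson r of log2(CPM + 1) over the 32 transcriptome libraries, among 10762 genes searched. These libraries share 8 stages, so r describes the shape over stages. For Zp1 they were Tle6 (r = 0.977), part of the subcortical maternal complex, and R3hdml (0.973). For Zp2 they were Ftdc2 (0.981) and D630033O11Rik (0.977), and for Zp3 Padi6 (0.985), an oocyte marker, and Il17f (0.966). Astl resembled Plat (0.984), the gene of tissue plasminogen activator, and Slc6a20a (0.983). Cd9 resembled Ppie (0.969) and Scnm1 (0.967), Cd81 resembled Calr (0.857) and Akap12 (0.835), Izumo1r resembled Cldn25 (0.995) and Npffr2 (0.994), and Itpr1 resembled Bnc1 (0.982) and Dclk1 (0.981). Among the members themselves r was 0.982 for Zp1 with Zp2, 0.955 for Zp1 with Zp3 and 0.964 for Zp1 with Astl, while r of Cd9 with the others ran from -0.653 to -0.019.

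The gradients gave a second view of the same transcripts. Within each gradient the CPM of fractions 6 to 10, called heavy here by convention since the labels only number the fractions, was set against that of fractions 1 to 5. CPM is relative to each fraction's own library, so shares of the summed CPM take no account of how much RNA a fraction held. For the zona genes and Astl, the mean share of summed CPM in heavy fractions was 53.8% (Zp1) to 71.4% (Zp3) in GV oocytes. In zygotes it was 31.9% (Zp1) to 45.8% (Zp3). Of these differences between heavy and light fractions, only that of Zp3 in GV oocytes and that of Zp1 in zygotes were called.

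Zp3 peaked in fraction 9 in all 3 GV gradients, with a mean of 18110 ± 10663 CPM (SD, n = 3) and values from 8746 to 29715. Its heavy means were 5883, 13304 and 9780 CPM in gradients A, B and C, and its light means 3841, 4503 and 2584 CPM, so no heavy mean fell as low as a light one. The log2 difference of heavy over light was 1.37 (SE 0.303, limma adjusted p = 0.00673). Zp3 was the 1 member called higher in the heavy fractions of GV oocytes, where 3.3% of the 15172 genes tested were higher. Its adjusted p ran from 0.000111 to 0.568 over 9 alternatives, and it was 0.116 without gradient B and 0.13 without gradient C. The heavy share of its CPM was 71.4 ± 9.72% in GV oocytes, 54.8 ± 3.6% in MII oocytes, 45.8 ± 0.85% in zygotes and 27.3 ± 5.37% in 2-cell embryos, and the 4 stages did not overlap.

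Zp2 sat at the far end of the GV gradient, with 1946 ± 564 CPM in fraction 10 against 714 ± 300 in fraction 9. Its heavy share was 67.9 ± 2.62% in GV oocytes, 56.7 ± 5.7% in MII oocytes and 37.8 ± 7.62% in zygotes. Zp1 was more evenly spread in GV oocytes, with a heavy share of 53.8 ± 2.81%. In MII oocytes it was highest in fraction 2, at 4093 ± 392 CPM, and in zygotes again in fraction 2, at 2565 ± 581 CPM. The heavy share of Zp1 in zygotes was 31.9 ± 4.5% and its log2 difference -1.10 (SE 0.377, limma adjusted p = 0.0392), the 1 member called lower in zygotes, where 5.06% of genes were. Its adjusted p ran from 0.00828 to 0.882 over 9 alternatives, and the call was lost when gradient A, B or C was left out.

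Astl changed sides at fertilization in its raw profile. Its highest fraction was fraction 9 in each MII gradient, with a mean of 6445 ± 2764 CPM, and fraction 3 or 5 in each zygote gradient, with means of 3321 ± 184 and 3413 ± 695 CPM. Its heavy share was 66.1 ± 6.6% in GV oocytes, 67.1 ± 4.67% in MII oocytes and 38 ± 6.25% in zygotes, and the zygote gradients did not overlap with those of either oocyte stage. Neither Astl nor any other of the 8 was called in MII oocytes with limma or edgeR, where 15.2% of genes were called and 1 member had an unadjusted p under 0.05.

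Izumo1r kept a peak near the top of the gradient. Fraction 2 held 3614 ± 474 CPM in GV oocytes, 2747 ± 632 in MII oocytes, 6767 ± 1443 in zygotes and 4593 ± 431 in 2-cell embryos, and it was the highest mean of the 10 fractions at each of these stages. Its heavy share was 47.1 ± 4.61%, 33.3 ± 3.45%, 37.8 ± 1.05% and 28.3 ± 3.24% in the same order. In MII oocytes the log2 difference was -1.005, with a limma adjusted p of 0.0767. Heavy and light fractions of 1 gradient come from 1 lysate, and with the gradient as a block the adjusted p was 0.0463 (from 0.0208 to 0.994 over 9 alternatives).

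**Figure D2:**
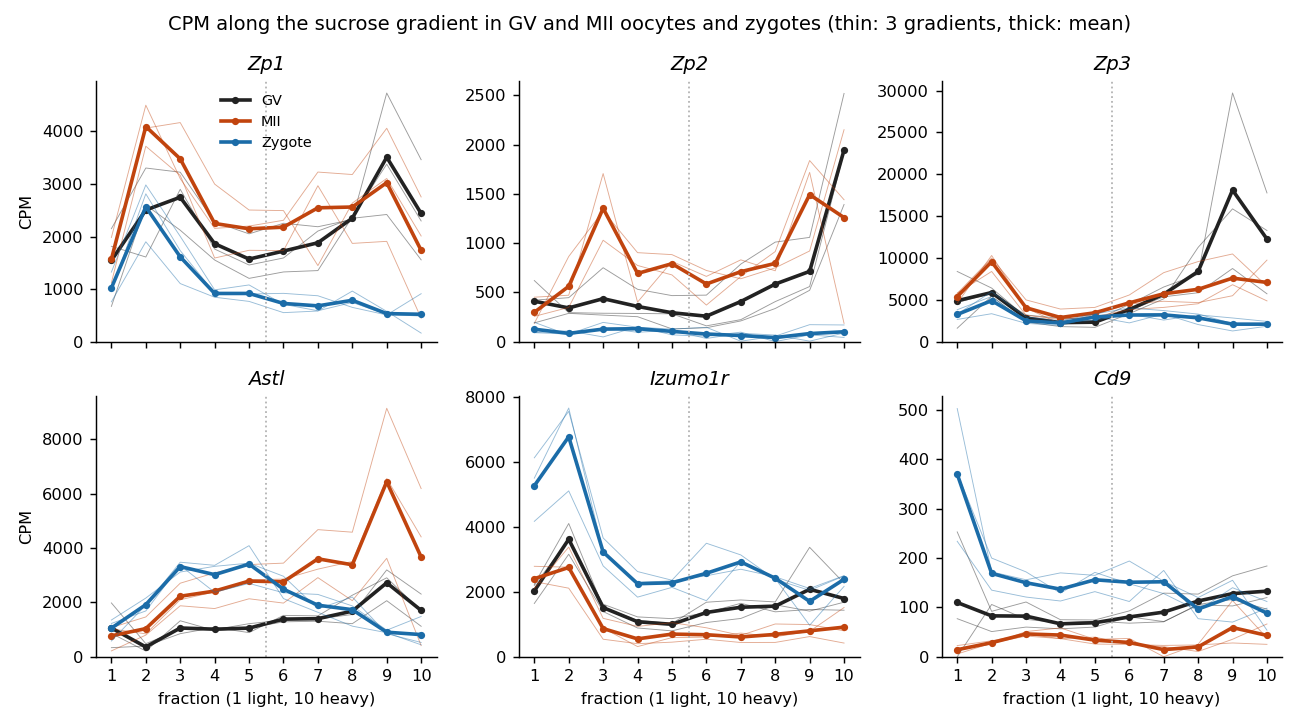
CPM in each of the 10 gradient fractions for 6 of the genes in GV oocytes, MII oocytes and zygotes, with a thin line per gradient (n = 3 per stage), a thick line for their mean and a dotted line between light and heavy fractions. In GV oocytes Zp3 is highest in fraction 9 and Zp2 in fraction 10, and Astl is highest in fraction 9 in MII oocytes. The mean of Izumo1r is highest in fraction 2 at these 3 stages, while its MII gradients A and B are highest in fraction 1.

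Cd9 took another course. Its heavy share was 57.8 ± 3.89% in GV oocytes, 49.5 ± 7.07% in MII oocytes and 38.7 ± 2.88% in zygotes, where fraction 1 was the highest at 370 ± 135 CPM. At the 2-cell stage the gradients disagreed, with heavy shares of 13.1, 71.5 and 81.6%. It was 78.4 ± 2.86% in 4-cell embryos, 68.9 ± 6.47% in 8-cell embryos, 74.5 ± 3.14% in morulae and 70.9 ± 2.87% in blastocysts. In morulae and blastocysts Cd9 was the 1 member called higher in the heavy fractions, beside 5.06% and 7.24% of genes. The log2 differences were 1.55 (limma adjusted p = 0.0156, from 0.00126 to 0.353 over 9 alternatives) and 1.28 (limma adjusted p = 0.000987, from 6.38e-05 to 0.503). The morula call was lost when gradient A, B or C was left out, and the blastocyst call held each time.

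In 4-cell and 8-cell embryos the larger share of zona transcript CPM lay in light fractions, with mean heavy shares of 6.54 to 33.5% and single gradients from 0 to 47.1%. No member was called in 2-cell embryos with limma, where 3.53% of genes were called and 1 member had an unadjusted p under 0.05, and edgeR called 2. In 4-cell embryos 1 was lower in heavy fractions (Zp2), beside 0.692% of genes. Its light mean was 163 ± 58.8 CPM and its heavy mean 11.9 ± 20.4, a log2 difference of -5.44 (limma adjusted p = 0.0356, from 3.22e-05 to 0.207 over 9 alternatives), and the call was lost without gradient A (adjusted p 0.176) or C (0.328). In 8-cell embryos 3 were lower (Zp1, Zp3 and Izumo1r), beside 4.03%. Zp1 had 102 ± 17.2 CPM in light and 8.17 ± 7.15 in heavy fractions, a log2 difference of -4.19 (limma adjusted p = 9.91e-05, from 2.35e-06 to 0.0681 over 9 alternatives) that was called without any 1 gradient. Zp3 was at -2.05 (limma adjusted p = 0.0241, from 0.00193 to 0.08 over 9 alternatives) and Izumo1r at -2.96 (limma adjusted p = 0.0112, from 0.00798 to 0.172). Without gradient A or B neither was called, with adjusted p of 0.124 and 0.306 for Zp3 and 0.16 and 0.198 for Izumo1r.

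In morulae 2 were lower in heavy fractions (Zp1 and Zp2), beside 6.29% of genes, at low levels: Zp1 had 3.5 ± 2.98 CPM in light and 0.133 ± 0.162 in heavy fractions, and Zp2 6.08 ± 3.26 and 1.35 ± 2.33. The call of Zp1 was lost without gradient C (limma adjusted p 0.192) and that of Zp2 without gradient B or C (0.312 and 0.211). Astl differed by -2.29 in morulae with a limma adjusted p of 0.0977, and of 0.0399 with the gradient as a block (from 0.0399 to 0.427 over the alternatives). In blastocysts 1 was lower (Zp2), beside 10.1%. All its reads there lay in light fractions, with a mean of 2.36 ± 2.02 CPM and 0 reads in every heavy fraction, and no fold is given; its call was lost without gradient A (limma adjusted p 0.145). A value of 0 is a count of 0 reads, which allows up to 3 reads, and this covers counting error only because amplified reads carry no molecular identifiers. Of fractions where both other gradients of the stage had at least 100 CPM for a gene, the remaining one was at 0 in 4.63% of cases at the 2-cell stage, 4.36% at the 4-cell stage and 1.17% at the 8-cell stage, and the other stages reached 0.0713% at most. Among the 8 genes this was so in 2 of 23 cases at the 4-cell and 3 of 42 at the 8-cell stage.

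**Figure D3:**
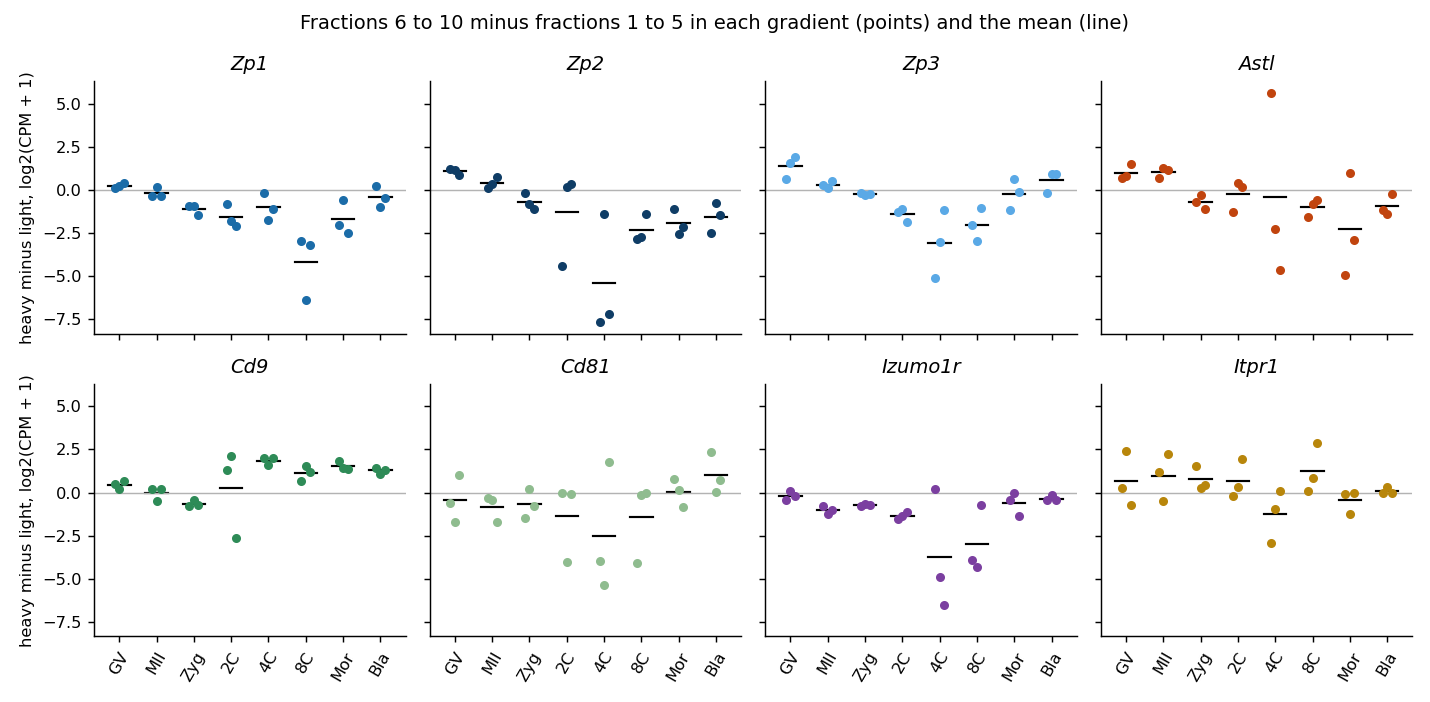
Log2 difference of heavy (6 to 10) over light (1 to 5) fractions for each member and stage, from the mean CPM of each side plus 1, with points for the 3 gradients and a bar for their mean. The means of the zona genes go from above 0 in GV oocytes to below 0 in 8-cell embryos, and Cd9 is above 0 from the 4-cell stage on.

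The change of this difference between consecutive stages was tested as well, and none of the 8 was called at any of the 7 steps with limma; edgeR was not run for it. Of the 56 member tests 8 had an unadjusted p under 0.05. The share of all genes called was 3.3% from GV to MII oocytes, 0.751% to zygotes, 1.51% to 2-cell embryos, 0.277% to 4-cell embryos, 0.0198% to 8-cell embryos, 0.369% to morulae and 0.798% to blastocysts. The declines of heavy share given above for the zona genes and Astl are therefore descriptions. In simulated data this test recovered 60% of 4-fold changes from GV to MII oocytes and 0% from zygotes to 2-cell embryos.

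The level of a gene averaged over the 10 fractions of a gradient was not that of the matching transcriptome. This comparison was added after the values had been seen. It sets 2 kinds of library side by side that were made from different lysates, pool sizes and amounts of RNA, so kind of library and any biological difference cannot be told apart. In GV oocytes the 3 zona genes already went apart: Zp2 had gradient means of 374 to 847 CPM against 4123 to 4833 in transcriptomes, a log2 difference of -3.07 (limma adjusted p = 1.39e-09), while Zp1, with 1888 to 2796 against 1029 to 1340 CPM, and Zp3, with 4862 to 8903 against 3659 to 4362, stayed under the limit of 1 on the log2 scale. Of the 8 genes 3 were higher in gradients (Astl, Cd81 and Izumo1r), where 23.2% of the 15282 genes tested were, and 3 were lower (Zp2, Cd9 and Itpr1), where 22.1% were. The GV call of Izumo1r was lost without gradient B (log2 difference 0.989) and at a pseudocount of 0.1 (adjusted p 0.0609; from 2.13e-06 to 0.0609 over 6 alternatives).

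The difference of Zp3 and Izumo1r was larger in MII than in GV oocytes, and that of Astl larger in zygotes than in MII oocytes; the change of these differences between stages was not tested. In MII oocytes Zp3 had gradient means of 4714 to 6926 CPM against 399 to 713 in transcriptomes (log2 difference 3.41, limma adjusted p = 4.38e-18), and 4 members were higher (Zp1, Zp3, Astl and Izumo1r), beside 30.7% of genes, with 1 lower (Itpr1), beside 22.4%. In zygotes 6 were higher (Zp1, Zp3, Astl, Cd9, Cd81 and Izumo1r), beside 32.7%, and 1 lower (Itpr1), beside 21.5%. Astl had 1966 to 2172 CPM in zygote gradients against 39 to 72.7 in transcriptomes (log2 difference 5.30), and Izumo1r 2623 to 3584 against 125 to 180 (log2 difference 4.39). Zp2, with 74 to 119 against 129 to 140 CPM, was not called in zygotes.

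At later stages too, more members were called higher in gradients than lower. In 2-cell embryos 4 were higher in gradients (Zp1, Zp3, Astl and Izumo1r), beside 15.5%, and 1 lower (Itpr1), beside 22.3%. In 4-cell embryos 6 were higher (Zp1, Zp2, Zp3, Astl, Cd81 and Izumo1r), beside 9.58% of genes. Izumo1r had 52.5 to 171 CPM in 4-cell gradients against 0.137 to 0.857 in transcriptomes, the largest log2 difference of any member at any stage, 5.81. The calls of Zp2, Astl and Cd81 at the 4-cell stage were each lost when some libraries were left out: Zp2 without gradient C (adjusted p 0.0596), Astl without gradient B (0.135) and Cd81 without gradient B or C (0.211 and 0.183) or transcriptome A or C (0.0597 and 0.0551). The sum of oocyte markers differed in the same direction between the 2 kinds of library at this stage, as given above, and its part in these differences was not tested.

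In 8-cell embryos 5 were higher (Zp1, Zp2, Zp3, Astl and Izumo1r), beside 18.1%, where Astl lost its call without gradient A (adjusted p 0.0728) or C (0.0922). In morulae 2 of the 8 were higher (Astl and Cd81), near the share of 21.2% of all genes. Astl lost that call without gradient A (0.487) or C (0.0775) or transcriptome C (0.0688) or D (0.0922). In blastocysts 2 were higher (Zp3 and Cd9), beside 13.4%, and 1 was lower (Itpr1), beside 26.7%. Cd9 lost its blastocyst call without gradient C (log2 difference 0.961).

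**Figure D4:**
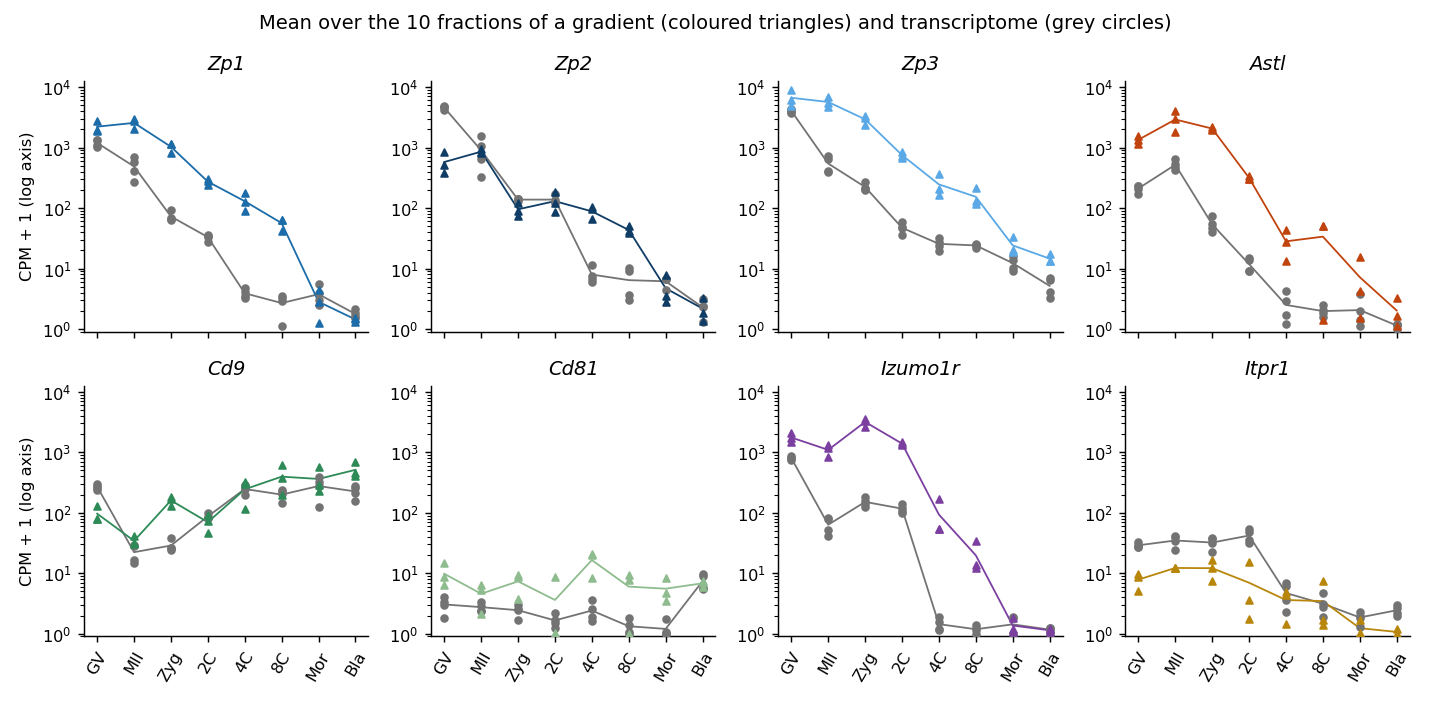
Level of each member by stage as the mean over 10 gradient fractions (n = 3 gradients) and in transcriptomes (n = 4 libraries), as CPM plus 1 on a log axis, with a coloured triangle per gradient, a grey circle per library and lines through the means. Zp2 in GV oocytes is lower in gradients (374 to 847 CPM) than in transcriptomes (4123 to 4833), and Izumo1r in 4-cell embryos is higher in gradients (52.5 to 171 CPM) than in transcriptomes (0.137 to 0.857).

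The genes around these 8 were read from 4 lists in the transcriptomes. Their counts stand beside the shares of all genes called at the same step: 25.3% lower and 9.11% higher from GV to MII oocytes, 8.71% and 25.2% from zygotes to 2-cell embryos, 32.9% and 31.8% from 2-cell to 4-cell embryos, and 7.97% and 18.8% from morulae to blastocysts. Of 9 regulators of the zona genes and other secreted oocyte proteins, 7 fell and 1 rose from the 2-cell to the 4-cell stage, with a median log2 change of -5.92 against 0.02 over all genes tested. The largest falls were those of Oosp3 (-9.71) and Oosp1 (-8.17), which encode secreted oocyte proteins, and the rise was that of Taf4b (1.84), a transcription factor subunit. From GV to MII oocytes 3 fell and 1 rose (median -0.21 against -0.11). Figla, the activator of the zona genes, fell by 4.31, from 43.6 ± 4.92 to 1.25 ± 0.262 CPM (SD, n = 4), Lhx8 fell by 2.22, and Oosp1 rose by 1.32.

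Of 22 genes of calcium signalling and egg activation, 15 fell and 4 rose from the 2-cell to the 4-cell stage (median -1.44 against 0.02). Wee2, a kinase that keeps the oocyte in prophase arrest and is needed to leave MII, fell by 7.63 and Fbxo43, the inhibitor of the anaphase-promoting complex in the MII egg, by 6.14, while Calm3 rose by 2.91 and Stim1 by 2.17. From GV to MII oocytes 6 fell, with Orai1 (-4.19), a store-operated calcium channel, and Calm2 (-3.94) changing most, and 2 rose, Atp2b1 (1.06) and Fbxo43 (1.01).

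Of 12 egg membrane partners of CD9 and the integrins 11 were tested. From zygotes to 2-cell embryos 5 rose and 1 fell (median 0.36 against 0.37), with Cd63 (6.31) and Itgav (2.43) rising and Cd55 (-1.44) falling. From 2-cell to 4-cell embryos 2 rose, Cd63 (3.05) and Itgav (1.56), and 3 fell, with Itga9 (-8.15) and Cd55 (-5.23) changing most. From morulae to blastocysts 6 rose and 0 fell (median 1.02 against 0.16), with Ptgfrn, a binding partner of CD9, at 3.57 and Ezr at 2.91. Of 13 genes of the exocytosis machinery 10 were tested. From GV to MII oocytes 3 fell and none rose (median -0.24 against -0.11), a share near the 25.3% of all genes that were lower, with Napa (-2.86) and Rab3a (-1.45) changing most, and from 2-cell to 4-cell embryos Nsf fell (-1.56) while Vamp3 rose (1.71).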

How the data were processed

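RNA was measured in 272 libraries of mouse oocytes and embryos. The deposited table, made by the authors, holds CPM (reads per 1 M) for 15854 gene symbols. Where symbols repeated each other's values throughout (159 symbols) 1 per group was kept, which left 15771. The submitters' processing notes name Trim Galore 0.6.7, FastQC, HISAT2 2.2.1, featureCounts 2.0.1, edgeR and GRCm39, with no roles. In 38 columns the deposited values summed past 1 M because of these repeats. The 9 that passed it furthest were recorded as a signal, scaled by the authors like the rest and used as CPM. Deposited values were whole multiples of 1 read, and 100% came out as whole counts of reads within 0.05. Smart-seq amplification and Nextera tagmentation, the library steps per the labels, do not mark strand, so antisense reads cannot be told apart. The 2-cell transcriptome columns carry letters E to H in place of A to D and were used without pairing.

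limma 3.58.1 (R 4.3.3) tested log2(CPM + 1), a scale that understates changes of low genes, over all genes that reached 1 CPM in a number of samples equal to the smallest group's size. A gene was called at a Benjamini-Hochberg adjusted p under 0.05 and a log2 change of at least 1. Spread was weighted by stage for gradients, because 2-cell, 4-cell and 8-cell gradients varied most. edgeR 4.0.16 on recovered reads was an alternative, with 2-cell fraction 7 of gradient B left out. The other alternatives were the pseudocount, the filter, quantile normalization, equal spread, other fraction limits, a replicate block and each sample left out. Methods were tested on simulated data. All 8 members are named with their values, with the 2 genes most like each by Pearson r (mean CPM of at least 10 in some stage) and the 2 largest changes per list and direction, except 1 gene that is not reported here. Members and lists were chosen with earlier results of these data known. The 3 zona genes' short ends, the promoter windows and the comparison of gradients with transcriptomes were chosen after values were seen. Heavy and light fractions of a gradient share a lysate, so they are paired by design; the correlation of their deviations was 0.006 to 0.256.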

Additional observations from a re-analysis of the deposited data

Results flagged for a closer look

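Among the 64 groups of 4 transcriptome libraries (8 genes at 8 stages), 4 had 1 library apart from the other 3 by more than the 95% critical value of Dixon's test for 4 samples, and chance alone flags about 1 in 20 groups. Zygote library B was apart in both Zp2, with 129 CPM where the others had 139 to 140 (gap over range 0.9), and Zp3, with 265 CPM where the others had 201 to 211 (0.839); it was low in the first and high in the second. Morula library D had 3.49 CPM of Zp2 where the others had 5.62 to 5.77 (0.935). Morula library B had 0.753 CPM of Cd81 where the others had 0 to 0.0498 (0.934).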

How the results depend on the processing

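Each result was recomputed with 1 choice changed at a time, and no direction reversed. Over the alternatives, 304 of 312 transcriptome values, 510 of 566 heavy against light values, 441 of 445 values of gradient position and 362 of 377 values of gradients against transcriptomes kept their direction and side of the threshold. Of 26 transcriptome calls 26 held with edgeR and with quantile normalization. Of 11 heavy against light calls 2 held with edgeR and 4 with an equal spread for all stages, so these are the least stable results; the cause was not tested. The replicate block left 158 of 160 member results the same and made 2 stronger, Izumo1r in MII oocytes (adjusted p 0.0463, from 0.0208 to 0.994) and Astl in morulae (0.0399, from 0.0399 to 0.427 over its alternatives). The letters of transcriptome pools and of gradients share only a name across stages (2 of 20 and 0 of 21 correlations of deviations over 0.1).

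The counts of members called that changed by more than 1.5 times were these, each with the count as reported first; smaller moves are not listed. With edgeR on recovered reads, the transcriptome count lower in morulae went from 1 to 2; heavy against light, the count higher went from 1 to 0 in GV oocytes, 0 to 1 at the 4-cell stage, 1 to 0 in morulae and 1 to 0 in blastocysts, and the count lower went from 1 to 0 in zygotes, 0 to 2 at the 2-cell stage, 3 to 1 at the 8-cell stage, 2 to 0 in morulae and 1 to 2 in blastocysts. With an equal spread, heavy against light, the count higher went from 1 to 0 in GV oocytes, morulae and blastocysts and from 0 to 1 at the 4-cell stage, and the count lower from 1 to 0 in zygotes and blastocysts, 0 to 1 at the 2-cell stage, 1 to 3 at the 4-cell stage and 2 to 0 in morulae. The same setting gave 1 in place of 0 for position lower at the 4-cell and 8-cell steps and 1 in place of 2 higher in morula gradients against transcriptomes. With each fit limited to the groups it compares, heavy against light gave 1 higher and 1 lower in place of 0 in MII oocytes, and the count lower went from 0 to 2 at the 2-cell stage, 1 to 0 at the 4-cell stage, 3 to 0 at the 8-cell stage, 2 to 0 in morulae and 1 to 0 in blastocysts. It also gave 1 in place of 0 for position lower in zygotes and 1 in place of 2 higher in morula gradients. With fractions 7 to 10 as the heavy side the count lower went from 1 to 0 in zygotes, 1 to 3 at the 4-cell and 3 to 5 at the 8-cell stage. With fractions 2 to 5 as the light side 1 was higher in place of 0 in MII oocytes and in zygotes, and the count lower went from 1 to 0 at the 4-cell stage. With no filter on low values that last count was 2. With a pseudocount of 0.1 the transcriptome count higher went from 1 to 0 in zygotes, and the count lower from 0 to 1 at the 8-cell stage and 1 to 2 in morulae. The same pseudocount moved the heavy against light count lower from 1 to 0 in zygotes and at the 4-cell stage and from 1 to 2 in blastocysts, and gave 1 lower in place of 0 in morula gradients against transcriptomes. With quantile normalization the heavy against light count lower went from 1 to 0 in zygotes and at the 4-cell stage and 2 to 1 in morulae, and the count higher from 1 to 0 in morulae. It also gave 1 in place of 0 for position lower in MII oocytes, 5 in place of 3 higher in GV gradients and 0 in place of 1 lower in blastocyst gradients. With the replicate block the count lower in heavy fractions of MII oocytes was 1 in place of 0.

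Leaving out 1 sample moved these counts of members by more than 1.5 times. The transcriptome count lower in morulae ran from 0 to 1. Heavy against light, the count higher ran from 0 to 1 in GV oocytes and 0 to 0 in morulae, and the count lower from 0 to 0 in zygotes, 0 to 1 at the 4-cell stage, 1 to 3 at the 8-cell stage, 0 to 2 in morulae and 0 to 1 in blastocysts. The count higher in morula gradients against transcriptomes ran from 1 to 3.

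Quantile normalization moved the share of called genes that were higher, from 26.44 to 55.44% between GV and MII oocytes, 74.29 to 46.97% from zygotes to 2-cell embryos, 17.37 to 48.73% from the 4-cell to the 8-cell stage, 68.85 to 52.35% in morulae and 70.21 to 50.77% in blastocysts, and the median change of all genes from -0.11 to 0.15, 0.37 to -0.06, -0.11 to 0.00, 0.07 to -0.01 and 0.16 to 0.00. Counts of all genes called heavy against light ran from 8 (edgeR) to 1854 (fractions 2 to 5) around 623 in GV oocytes and from 0 to 2468 around 124 at the 4-cell stage. In simulated data 37% of 2-fold and 100% of 4-fold changes were recovered between GV and MII transcriptomes, and 0% and 3% between heavy and light fractions of 2-cell embryos.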

Other observations

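In the fractions of MII oocytes, where 15.2% of all genes were called heavy against light in either direction, the lists around the 8 genes held other genes that were called. Of the 9 zona gene regulators and secreted oocyte proteins 3 were higher in heavy than in light fractions, among them Oosp3 (log2 difference 2.94) and Oosp1 (1.90), and Nobox was lower (-1.64), with a median of 0.2 against -0.06 over all genes tested. Of 22 genes of calcium signalling and egg activation 3 were higher, among them Fbxo43 (2.58), an inhibitor of the anaphase-promoting complex, and 2 were lower (median -0.07 against -0.06).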
